A study of Mus musculus with 3 samples.

Results

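The 6 genes described here, Klrd1, Klrc1, Klrc2, Klrk1, Klrg1 and Klre1, encode lectin-type receptors best known from natural killer (NK) cells, and they were followed in CD4 T cells. They were taken by name from the 28692 genes listed for the wild-type libraries. The cells were wild-type TEa cells, CD4 T cells with a transgenic receptor against a BALB/c alloantigen, which had been given as naive cells to C57BL/6 mice that then received BALB/c hearts. On day 7 the transferred cells were sorted, giving 1 library from the heart allograft and 1 library from the spleen of such recipients. Another library of the study, Ldha-/- TEa cells from the spleen, was not analysed here. The age of the animals and the number pooled per library are not given in the sources used here. Every TEa cell carries the same 1 transgenic receptor, so the design stands for a single antigen specificity. Segments of other receptors were also found among the kept cells, as given below. Droplet 3′ sequencing counted unique molecular identifiers (UMIs), each standing for 1 captured transcript. A barcode counted as a cell from 1000 UMIs and 500 genes upward, with at most 10% mitochondrial UMIs and at most 1 UMI of the macrophage gene Lyz2. This left 3997 heart cells with 42401177 UMIs and a median of 8237 UMIs per cell, and 6578 spleen cells with 56328025 UMIs and a median of 7989 UMIs per cell.

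CD94, the product of Klrd1, pairs with a member of the NKG2 family on the cell surface. With NKG2A, the product of Klrc1, it forms an inhibitory receptor that recruits phosphatases, and with NKG2C, the product of Klrc2, an activating receptor that signals through the adaptor DAP12. Both pairs read the non-classical class I molecule Qa-1, which is encoded by H2-T23. Klrk1 encodes NKG2D, an activating receptor for stress-induced ligands that signals through DAP10 (Hcst). Klrg1 encodes an inhibitory receptor for cadherins that marks short-lived effector T cells, and Klre1 encodes a mouse receptor of NK cells that pairs with the KLRI chains. On T cells these receptors are known mainly from antigen-experienced CD8 cells, and conventional CD4 cells usually carry few of them.

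Klre1, Klrd1, Klrk1, Klrc2 and Klrc1 lie within 101 kb of mouse chromosome 6 in the NK gene complex (GENCODE M21 on GRCm38: Klre1 chr6:129577905-129585827, Klrd1 chr6:129591782-129598775, Klrk1 chr6:129610323-129623864, Klrc2 chr6:129647496-129660689 and Klrc1 chr6:129666015-129678973). Klre1 and Klrd1 are on the plus strand and the other 3 of these genes on the minus strand, while Klrg1 lies 7.30 Mb away at chr6:122270596-122282882 on the minus strand. RefSeq promoter windows of the same build, from 250 bases before to 50 bases after a start site, were found for 4 of the 6 members. They are shown because transcripts of these neighbouring genes were found in the same cells more often than independent spread would give. Capitals mark the letters TGTGGT (the core of RUNX sites), TGANTCA (AP-1) and CTTTGA (TCF/LEF) on either strand. The T-box letters AGGTGT were also searched and are in none of the 4 windows. In the Klrk1 window the TCF/LEF match and the AP-1 match overlap.
Klrc1, chr6:129678924-129679223, minus strand: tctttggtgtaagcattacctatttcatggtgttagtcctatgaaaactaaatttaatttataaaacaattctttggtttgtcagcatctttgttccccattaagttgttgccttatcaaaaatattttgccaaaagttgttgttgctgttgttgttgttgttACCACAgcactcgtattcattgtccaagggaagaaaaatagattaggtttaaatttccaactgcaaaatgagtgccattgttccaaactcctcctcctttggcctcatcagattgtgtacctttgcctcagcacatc
Klrc2, chr6:129660547-129660846, minus strand: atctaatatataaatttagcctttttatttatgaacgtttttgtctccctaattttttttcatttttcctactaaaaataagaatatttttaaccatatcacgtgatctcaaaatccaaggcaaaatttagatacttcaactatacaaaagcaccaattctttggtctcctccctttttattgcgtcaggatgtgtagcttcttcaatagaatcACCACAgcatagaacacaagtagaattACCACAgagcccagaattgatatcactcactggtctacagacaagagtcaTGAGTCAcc
Klrk1, chr6:129623815-129624114, minus strand: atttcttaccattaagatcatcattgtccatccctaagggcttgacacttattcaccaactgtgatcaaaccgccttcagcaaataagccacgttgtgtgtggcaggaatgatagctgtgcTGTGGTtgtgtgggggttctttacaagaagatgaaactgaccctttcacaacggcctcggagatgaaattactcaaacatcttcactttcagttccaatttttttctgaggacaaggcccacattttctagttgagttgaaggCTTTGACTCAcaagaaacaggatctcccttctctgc
Klre1, chr6:129577963-129578262, plus strand: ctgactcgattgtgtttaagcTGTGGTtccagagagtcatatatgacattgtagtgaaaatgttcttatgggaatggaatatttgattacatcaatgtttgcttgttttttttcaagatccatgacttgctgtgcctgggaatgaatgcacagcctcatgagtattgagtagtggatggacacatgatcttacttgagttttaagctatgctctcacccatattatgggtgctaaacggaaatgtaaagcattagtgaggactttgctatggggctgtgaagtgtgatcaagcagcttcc

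The RUNX letters were in all 4 of these windows, against 16.8% of the 32851 windows of that length in the table. The AP-1 letters were in the Klrc2 and Klrk1 windows, against 7.81% of all windows, and the TCF/LEF letters in the Klrk1 window, against 16.0%. The T-box letters were in 13.7% of all windows. Klrc2 and Klre1 each have a second listed window, starting at 129660507 and 129578036. The second Klrc2 window overlaps the first and holds the same matches, and the second Klre1 window holds none of the 4 motifs. Such matches describe the letters and do not show binding. Runx3, the RUNX factor of cytotoxic T cells, was at 229 CPM in heart cells and 65.4 CPM in spleen cells, and Eomes, a T-box factor of NK cells, at 0.307 CPM in heart cells and 2.47 CPM in spleen cells. Both factors were named here for their role and with their values known, and their part in the receptor levels was not tested. No window was found for Klrd1 or Klrg1.

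4 of the 6 receptors were carried at a higher level by TEa cells in the heart allograft. Klrd1 was the most abundant, at 53.2 CPM (counts per 1000000 UMIs of kept cells) in heart cells and 9.02 CPM in spleen cells, a ratio of 5.90 (95% interval 5.35 to 6.51). Klrc1 was at 12.1 CPM in heart cells and 0.959 CPM in spleen cells, a ratio of 12.6 (9.48 to 17). The activating Klrc2 was at 5.0 CPM in heart cells and 0.320 CPM in spleen cells, a ratio of 15.6 (9.66 to 26.9). The ratios of both NKG2 partners of CD94 were thus larger than that of their common chain, and the intervals of Klrd1 and either partner did not overlap. Klrk1 was at 7.03 CPM in heart cells and 2.38 CPM in spleen cells, the smallest of these ratios at 2.95 (2.40 to 3.65). Intervals are exact for Poisson counts or binomial shares and cover counting error only. With 1 library per tissue there was no test, and a difference between the tissues cannot be told apart from one between the libraries.

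Klrg1 and Klre1 were rare. Klrg1 had 4 UMIs in heart cells and 33 UMIs in spleen cells, or 0.0943 and 0.586 CPM, so this marker of terminal effector cells did not share the direction of the other 4. Klre1 had 33 UMIs in heart cells and 50 UMIs in spleen cells, or 0.778 and 0.888 CPM, a ratio of 0.877 (0.547 to 1.39). A count of 0 would have allowed a level of 0.0708 CPM in heart cells and 0.0533 CPM in spleen cells.

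Since a 3′ UMI stands for 1 transcript end, levels of different genes could be ordered without dividing by length. In heart cells the order was Klrd1, Klrc1, Klrk1, Klrc2, Klre1 and Klrg1, with no overlap between the counting intervals of neighbours. In spleen cells it was Klrd1, Klrk1, Klrc1, Klre1, Klrg1 and Klrc2, and the intervals overlapped between Klrc1 and Klre1, between Klre1 and Klrg1, and between Klrg1 and Klrc2. Both orders are of all kept cells, and leaving out barcodes with NK or CD8 markers changed the spleen order to Klrd1, Klrk1, Klrc1, Klrg1, Klre1 and Klrc2. In heart cells the order then stayed, but the intervals of Klrk1 (4.63 to 6.05 CPM) and Klrc2 (3.60 to 4.87 CPM) overlapped. The Klrc1 and Klrc2 transcripts are near copies, which limits how firmly their reads can be told apart. Of the 50-base words in the last 400 bases, between 36.8% and 63.5% of those in the annotated Klrc1 transcripts also occur in Klrc2, and up to 43.9% of those in Klrc2 transcripts occur in Klrc1.

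As background, 10566 genes reached 1 CPM in heart or spleen cells, and of these 11.1% were at least 2-fold higher in heart cells and 15.6% at least 2-fold lower. 4 of the 6 members passed that floor and all 4 were at least 2-fold higher. Klrc1 and Klrc2 passed it only through heart cells, as their spleen levels were 0.959 and 0.320 CPM. For both, a higher heart level was thus fixed by the floor, which limits what the count of 4 shows. Klrg1 and Klre1 fell under the floor in both libraries. The median log2 ratio of all these genes was -0.18.

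**Figure D1:**
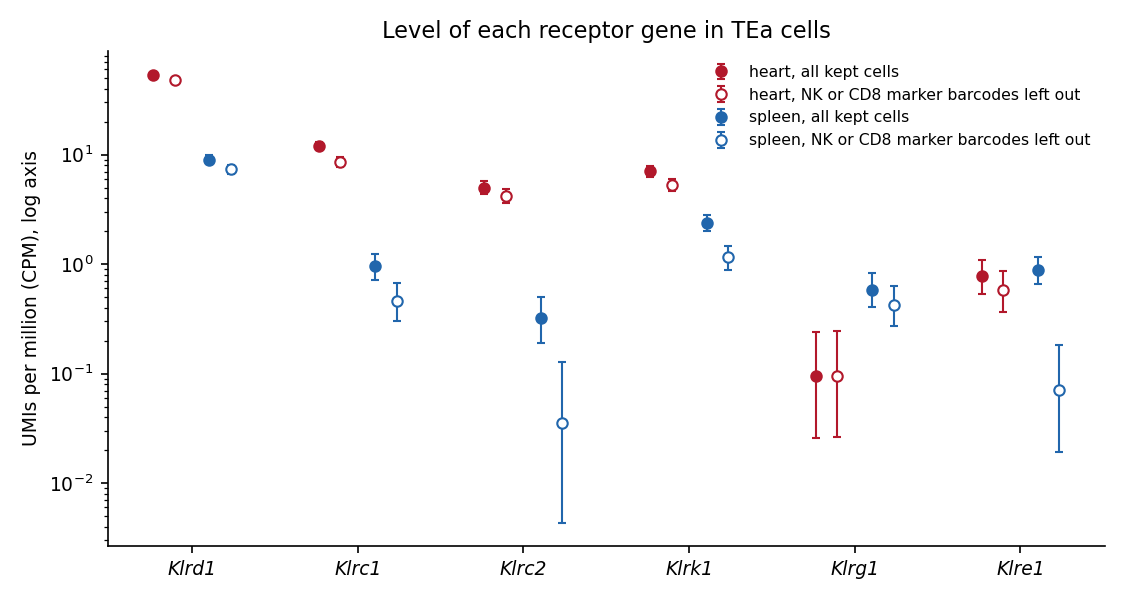
Level of each receptor gene (CPM, log axis) in heart (red) and spleen (blue) TEa cells, with exact 95% Poisson intervals as bars; filled points use all kept cells and open points leave out the barcodes with NK or CD8 markers. Klrd1, Klrc1, Klrc2 and Klrk1 sit higher in heart cells in both settings, and the spleen value of Klre1 drops from 0.888 to 0.0712 CPM when those barcodes are left out.

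The kept cells carried T cell markers at like levels in both libraries, but a few barcodes with transcripts of NK or CD8 cells held a large part of the receptor UMIs. Summed T cell markers stood at 11994 CPM in heart cells and 11645 CPM in spleen cells. Summed NK cell or ILC1 markers stood at 77.8 CPM in heart cells and 33.4 CPM in spleen cells, and 4 of those 11 genes, Klra4, Klra7, Klra8 and Klra9, were at 0 in heart cells. Gzma was the largest part of the heart sum, with 2856 UMIs in heart cells and 890 UMIs in spleen cells. Ncr1 ran the other way, with 2 and 52 UMIs, as did Klrb1c with 1 and 225 UMIs. Fcer1g had 216 and 176 UMIs and Tyrobp 140 and 169 UMIs. The sum thus does not rank the libraries by NK cells. Cd8a and Cd8b1 together stood at 17.1 CPM in heart cells and 5.34 CPM in spleen cells. Barcodes with a UMI of Ncr1 or Cd8a, or at least 3 UMIs of Tyrobp and Fcer1g together, were therefore set apart, a choice made after seeing the data. There were 36 such barcodes in the heart library and 13 in the spleen library, called NK or CD8 marker barcodes. Leaving them out did not remove all such transcripts: outside them Cd8b1 had 281 UMIs in 222 heart cells and 300 UMIs in 260 spleen cells, and Gzma (granzyme A) was found in 373 heart cells and 74 spleen cells. The part of these cells in the receptor levels was not tested.

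In the heart library the 36 marker barcodes held 10.7% of the Klrd1 UMIs, 30.7% of the Klrc1 UMIs, 17.5% of the Klrc2 UMIs and 25.8% of the Klrk1 UMIs. They were mainly of the CD8 kind: 24 of them had Cd8a, with 186 UMIs in all, and 1 had Ncr1. They were also deeper, at a median of 15971 UMIs against 8209 UMIs in the other heart cells, and 22 of the 36 (61.1%) and 13 of the 24 with Cd8a had a Cd4 UMI. Doublets were not called, so CD8 cells and droplets with a CD4 and a CD8 cell cannot be told apart in this set. All of the 12 heart marker barcodes without Cd8a had Fcer1g, a gene of myeloid as well as NK cells, and 9 had Cd4. Whether these hold NK or myeloid transcripts was not settled, in spite of the name of the set. In the spleen library the 13 marker barcodes held 18.3% of the Klrd1 UMIs, 51.9% of the Klrc1 UMIs and 51.5% of the Klrk1 UMIs. They also held 88.9% of the Klrc2 UMIs, 16 of 18, and 92.0% of the Klre1 UMIs, 46 of 50. Of the 13, 6 had Ncr1, with 52 UMIs, and these 6 also held all 521 Gzma UMIs of the set. The Ly49 receptor Klra7 had 55 UMIs in 6 of the 13. Trac was found in 7 of the 13, Cd3e in 6 and Cd4 in 3, with 7 Cd4 UMIs in all, so the set was not of 1 kind.

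Without the marker barcodes the tissue contrast was larger for each of the 4 receptors that were higher in heart cells. Klrd1 was at 48.4 CPM in heart cells and 7.38 CPM in spleen cells, a ratio of 6.55 (5.89 to 7.30), and Klrc1 at 8.50 and 0.463 CPM, a ratio of 18.4 (12.3 to 28.5). Klrc2 kept 175 UMIs in heart cells and 2 UMIs in spleen cells, a ratio of 118 (32.2 to 983). Klrk1 was at 5.31 CPM in heart cells and 1.16 CPM in spleen cells, a ratio of 4.59 (3.47 to 6.15). Klre1 turned round: it kept 24 UMIs in heart cells and 4 UMIs in spleen cells, a ratio of 8.10 (2.78 to 32.1). Klrg1 kept 0.0960 CPM in heart cells and 0.427 CPM in spleen cells. In this setting 10.8% of 10530 genes were at least 2-fold higher in heart cells and 15.8% at least 2-fold lower, and again 4 of 6 members passed the floor, all 4 at least 2-fold higher. Klrc1 and Klrc2 again passed it only through heart cells.

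**Figure D2:**
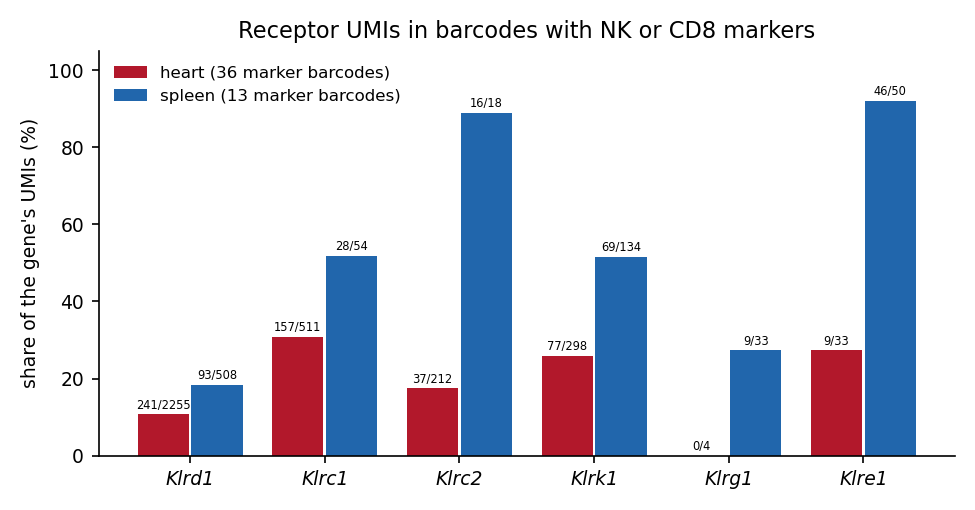
Share of each receptor's UMIs (%) that lies in the barcodes with NK or CD8 markers, for 36 such barcodes in heart (red) and 13 in spleen (blue); the numbers above the bars are UMIs in these barcodes over UMIs in all kept cells. The share is higher in spleen for each gene, at 92.0% for Klre1 and 88.9% for Klrc2.

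The other cells with Klrd1 carried the segments of the TEa receptor at shares near those of cells without Klrd1. The TEa receptor uses Vα2 and Vβ6, encoded by Trav14 and Trbv19. In heart cells with a Klrd1 UMI that were not marker barcodes, Trbv19 made up 87.2% of the Trbv UMIs (280 of 321), against 88.2% in heart cells with none. In spleen cells with a Klrd1 UMI it made up 84.0% (63 of 75), against 78.7% in spleen cells with none. In marker barcodes the share was 65.2% in the heart library (15 of 23 UMIs, 42.7 to 83.6) and 2 of 3 UMIs in the spleen library. Trav14 made up 78.5% of the Trav UMIs in heart cells with Klrd1 and 78.9% in heart cells with none, and 61.1% in spleen cells with Klrd1 and 58.5% in spleen cells with none. In heart marker barcodes it made up 72% (18 of 25 UMIs, 50.6 to 87.9), an interval that includes the other heart shares. A Cd4 UMI was present in 78.2% of heart cells with Klrd1 and 71.4% of heart cells without it, and in 77.9% of spleen cells with Klrd1 and 78.9% of spleen cells without it.

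Klrd1 was detected in a minority of cells that was larger in the graft. At least 1 Klrd1 UMI was found in 711 heart cells (17.8%, 95% interval 16.6 to 19) and 299 spleen cells (4.55%, 4.05 to 5.08). The cells also carried more of it: at least 5 UMIs were found in 134 heart cells and 16 spleen cells, at least 10 UMIs in 43 heart cells and 4 spleen cells, and the highest cell had 57 UMIs in the heart and 23 in the spleen. Both of these highest cells were marker barcodes. Without marker barcodes the highest had 31 UMIs in the heart and 9 in the spleen, at least 5 UMIs were found in 122 heart cells and 8 spleen cells, and at least 10 UMIs in 35 heart cells and 0 spleen cells. After each cell was thinned at random to 4000 UMIs, which left out 92 heart cells and 75 spleen cells, Klrd1 was detected in 11.4% of heart cells and 2.61% of spleen cells. At least 1 of the 6 receptors was found in 803 heart cells (20.1%) and 336 spleen cells (5.11%).

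The partner chains were found in fewer cells. Klrc1 was detected in 180 heart cells (4.50%) and 19 spleen cells (0.289%). Klrc2 was detected in 118 heart cells (2.95%) and 9 spleen cells (0.137%), and Klrk1 in 128 heart cells (3.20%) and 47 spleen cells (0.715%). In the spleen these UMIs sat in very few cells, since the 10 highest cells held 81.5% of the Klrc1 UMIs, 61.9% of the Klrk1 UMIs and 100% of the Klrc2 and Klre1 UMIs. In the heart the 10 highest cells held 26.4% of the Klrc1 UMIs, 28.2% of the Klrk1 UMIs, 22.6% of the Klrc2 UMIs and 51.5% of the Klre1 UMIs. Klrg1 was detected in 4 heart cells and 15 spleen cells, and Klre1 in 26 heart cells and 10 spleen cells.

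**Figure D3:**
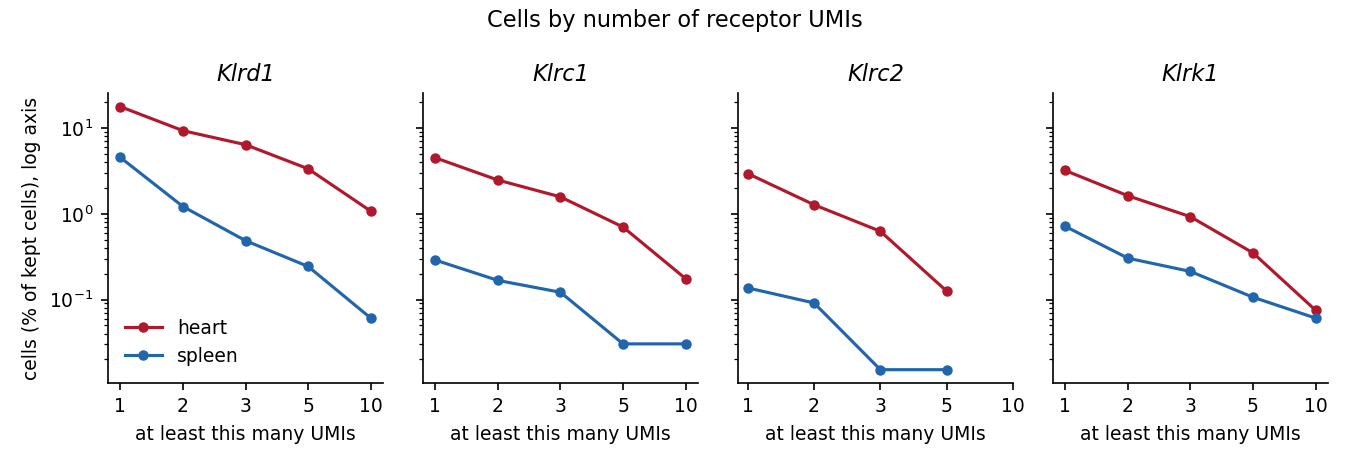
Share of kept cells (%, log axis) with at least 1, 2, 3, 5 or 10 UMIs of Klrd1, Klrc1, Klrc2 and Klrk1, for heart (red) and spleen (blue); a point is missing where no cell reached that number. The heart line lies above the spleen line throughout, and for Klrd1 the distance is wider at 5 UMIs (134 cells against 16) than at 1 UMI (711 against 299).

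Free RNA in the droplets was read from barcodes with 1 to 100 UMIs. Klrd1 stood there at 52.9 CPM for heart and 12.6 CPM for spleen. How much free RNA reached the kept cells was gauged from genes of other cells. Fcer1g, a gene of myeloid and NK cells, stood at 5.11% of its free level in kept heart cells and at 44.5% in kept spleen cells. At those percentages free RNA would bring 2.71 CPM of Klrd1 to heart cells and 5.62 CPM to spleen cells, against measured levels of 53.2 and 9.02 CPM. By Tyrobp it would bring 2.18 CPM to heart cells and 10.8 CPM to spleen cells, and by haemoglobin Hbb-bs, at 0 UMIs in kept heart cells, 3.65 CPM to spleen cells. The spleen values thus ran from well under to above the measured Klrd1 level, so the part of free RNA in spleen Klrd1 could not be fixed. Of the kept spleen UMIs of Tyrobp and Fcer1g, 83.4% and 85.8% lay in marker barcodes. In the other kept spleen cells these genes stood at 0.498 and 0.445 CPM, against free levels of 3.51 and 7.02 CPM. Those lower values would bring less Klrd1, but the marker barcodes were chosen in part on these 2 genes, which lowers what is left outside them.

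The heart barcodes left out for at least 2 Lyz2 UMIs gave no clear background share either. Of these 77, at a median of 26551 UMIs, 20 (26.0%) had a Klrd1 UMI. All 20 were among the 58 that also had the T cell receptor gene Trac (34.5%), a split made after seeing the data. Of the 19 without Trac, at a median of 13462 UMIs, 0 of 19 had a Klrd1 UMI, which allows a share of up to 15.8% by 3 counts and 17.6% by the exact interval. That is close to the 17.8% of kept heart cells at a median of 8237 UMIs, so 19 barcodes were too few to separate the shares. As a level, the 0 Klrd1 UMIs in these 19 allow up to 16.5 CPM by the exact interval, against 53.2 CPM in kept heart cells. Whether these barcodes took up free RNA as kept cells did was not tested. No such set of useful size existed in the spleen library, and there the background share was not measured in this way.

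The receptors were found in the same cells more often than independent spread would give. With each cell thinned to 4000 UMIs, 62 heart cells held both Klrd1 and Klrc1, against 11.5 cells had the genes been spread independently, a ratio of 5.37. Klrd1 was found in 61.4% of heart cells with Klrc1 (51.2 to 70.9), 61.5% of those with Klrc2 and 70.3% of those with Klrk1, against 11.4% of all heart cells. Klrc1 and Klrc2 were found together in 27 heart cells against 1.68 under independence, a ratio of 16.1. Of heart cells with Klrk1, 29.7% had Klrc1 and 16.2% had Klrc2, so most cells with Klrk1 had no UMI of either at this depth. Of heart cells with Klrc2, 41.5% had Klrc1, and 69.5% did so without thinning. Klrc1 and Klrc2 share part of their transcript ends, as given above, and the part of this in their pair was not tested. Without marker barcodes the 2 ratios were 5.24 and 17.2. In the other direction, 13.9% of the heart cells with Klrd1 had a Klrc1 UMI and 8.97% a Klrc2 UMI, so in most cells with Klrd1 no partner chain was detected at this depth.

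Spleen cells with more than 1 receptor were few. Klrd1 and Klrc1 were found together in 8 thinned spleen cells, against 0.366 under independence, and in 4 cells against 0.248 without marker barcodes. At full depth, 92 heart cells carried 3 or more of the 6 receptors, and 18 of them were marker barcodes. In the spleen 14 cells did so, and 8 of them were marker barcodes. Cells with 3 or more receptors were also deeper, with a median of 12694.5 UMIs in the heart against 7953.5 UMIs in heart cells with none, and the part of depth in this count was not tested beyond the thinned values above.

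Within the graft, receptor levels differed with the effector state of the cell. Cells were split by whether they held a UMI of a state gene after thinning to 4000 UMIs. Klrd1 was at 67.7 CPM in heart cells with Cxcr6, the chemokine receptor of tissue-homing effector cells, and 38.1 CPM in heart cells without it, a ratio of 1.78. It was at 64.0 CPM in heart cells with granzyme B (Gzmb) and 50.4 CPM in those without, but this direction turned in cells thinned to 1000 UMIs, at 51.0 and 52.5 CPM, a ratio of 0.973 (0.624 to 1.46), and without thinning the ratio was 1.12. It was at 68.0 and 46.8 CPM with and without the chemokine gene Ccl5, and at 69.5 and 50.5 CPM with and without Ifng, the gene of interferon gamma. The direction was the opposite for heart cells with Tcf7 or Il10 and for cycling heart cells. Klrd1 was at 38.1 CPM in heart cells with Tcf7, a factor of memory and stem-like T cells, and 58.2 CPM in those without. It was at 25.8 CPM in the 281 heart cells with Il10, the gene of an anti-inflammatory cytokine, and 56.0 CPM in those without. Cycling heart cells had 38.4 CPM and non-cycling heart cells 58.5 CPM. Gzmk and Itgae, a granzyme and an integrin of tissue-resident cells, went with slightly lower levels, at 45.6 against 56.8 CPM and 49.2 against 54.9 CPM.

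For 2 of the 4 effector gates the ratios inside over outside were larger for Klrk1 and Klrc1: for the Cxcr6 gate they were 3.18 and 2.92, against 1.78 for Klrd1, and for the Gzmb gate 2.89 and 2.39, against 1.27 for Klrd1. For the Ccl5 gate they were 1.37 and 1.39, against 1.45 for Klrd1, and for the Ifng gate 1.09 and 1.31, against 1.38 for Klrd1. Klrk1 was at 13.3 CPM in heart cells with Gzmb and 4.61 CPM in those without, and at 10.0 CPM with Cxcr6 and 3.14 CPM without it. In heart cells with Tcf7 it was at 1.47 CPM, or 5 UMIs in 853 cells, against 8.27 CPM in those without Tcf7. No Klrk1 UMI was found in the 281 heart cells with Il10, against 7.31 CPM in the other heart cells. Klrc1 was at 14 CPM in heart cells with Cxcr6 and 4.78 CPM in those without, and at 3.81 CPM with Tcf7 and 11.3 CPM without it. Klrc2 was at 6.75 CPM with Cxcr6 and 3.55 CPM without it, and it was at 2.88 CPM in heart cells with Gzmk against 6.11 CPM in those without. Without marker barcodes these directions stayed, with Klrk1 at 9.69 CPM in Gzmb-positive heart cells and 4.54 CPM in the others, but the Klrk1 directions for Ccl5 and Ifng turned round. Klrk1 was at 8.26 and 6.05 CPM inside and outside the Ccl5 gate and at 7.28 and 6.68 CPM inside and outside the Ifng gate, and without marker barcodes at 5.49 and 5.97 CPM and at 4.78 and 6.03 CPM.

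In the spleen the effector split was steeper. Klrd1 was at 66.7 CPM in the 296 spleen cells with Gzmb and 7.17 CPM in those without, and at 36.6 CPM with Ccl5 and 6.46 CPM without it. It was at 32.5 CPM with Cxcr6 and 8.61 CPM without it, and at 6.69 CPM with Tcf7 and 20.2 CPM without it. Without marker barcodes Klrd1 was at 38.4 and 6.41 CPM with and without Gzmb, and at 18.9 and 6.46 CPM with and without Ccl5. The Id3 gate, an inhibitor of DNA-binding factors kept by memory and follicular cells, went with 5.54 CPM in the gate and 15.8 CPM outside it. Spleen cells with Itgae (25 cells) or Il10 (5 cells) were too few to read.

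**Figure D4:**
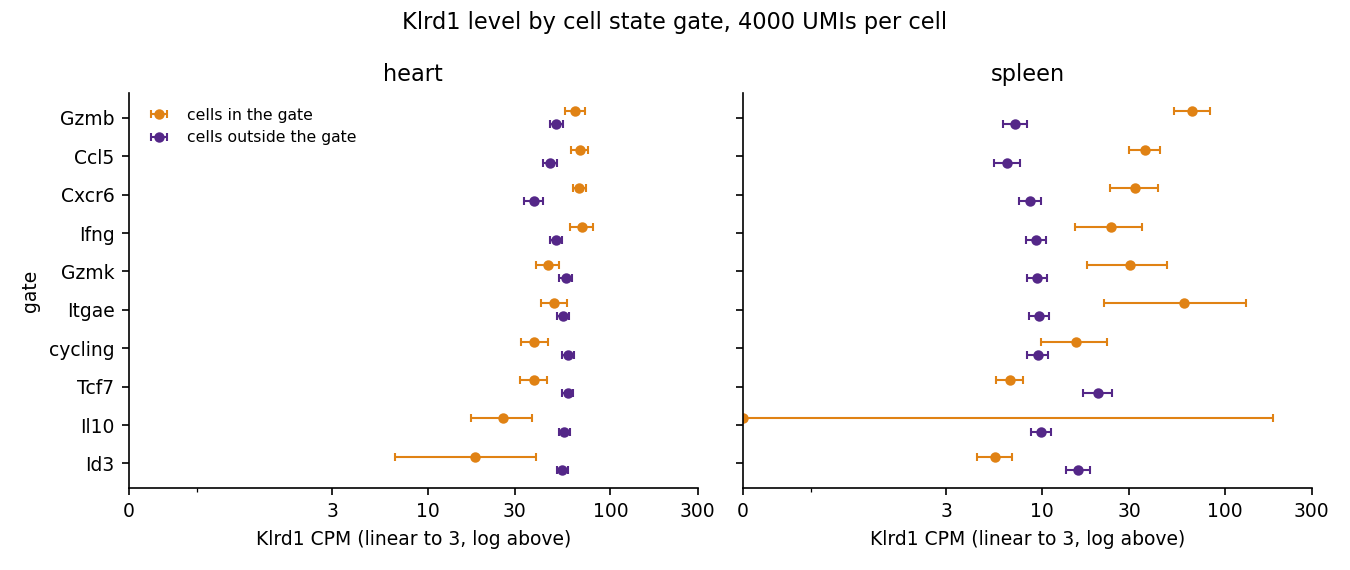
Klrd1 level (CPM, linear to 3 and logarithmic above) in cells inside (orange) and outside (purple) each state gate, with exact 95% Poisson intervals, in heart (left) and spleen (right) cells thinned to 4000 UMIs. Heart cells with Gzmb, Ccl5, Cxcr6 or Ifng lie above those without, and heart cells with Tcf7, Il10 or Id3 lie below; in the spleen the Gzmb gate holds 66.7 CPM against 7.17 CPM outside it.

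The tissues differed less in Klrd1 among cells inside the effector gates than among cells outside them. Without marker barcodes, Klrd1 was at 57.3 CPM in heart cells with Gzmb and 38.4 CPM in spleen cells with Gzmb, a ratio of 1.49 (1.08 to 2.11). Among cells without Gzmb it was at 49.8 CPM in heart cells and 6.41 CPM in spleen cells, a ratio of 7.76 (6.5 to 9.31). Among cells with Cxcr6 the ratio was 2.13 (1.55 to 2.98), and among cells without it 5.56 (4.56 to 6.80). The difference was smaller for the other gates. For Ccl5 the ratios were 3.34 (2.51 to 4.53) inside and 7.12 (5.91 to 8.61) outside. For Ifng they were 3.78 (2.29 to 6.63) and 6.54 (5.55 to 7.75), with intervals that overlap. The ratio was thus larger among cells in which these effector transcripts were not detected, a comparison made without a test, as there is 1 library per tissue. Cells outside a gate can carry its gene undetected at 4000 UMIs. Spleen Klrd1 outside the 4 gates was at 6.41 to 7.49 CPM, within the 3.65 to 10.8 CPM that free RNA would bring by the values above. The part of either in these ratios was not tested. With marker barcodes kept, the Gzmb-positive cells were at 64.0 CPM in heart cells and 66.7 CPM in spleen cells, a ratio of 0.960 (0.742 to 1.25).

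No excess of Klrk1 in the graft was seen within the effector gates, but without marker barcodes the counts were small and the intervals allow one. In that setting Klrk1 was at 9.69 CPM in heart cells with Gzmb and 11.9 CPM in spleen cells with Gzmb, a ratio of 0.811 (0.428 to 1.62). Among cells with Cxcr6 it was at 8.75 CPM in heart cells and 13.1 CPM in spleen cells, a ratio of 0.669 (0.395 to 1.19). With marker barcodes kept, Klrk1 was lower in heart cells inside these gates, at 13.3 CPM in heart cells and 27.9 CPM in spleen cells with Gzmb, a ratio of 0.478 (0.303 to 0.763). The ratio was then 0.494 (0.319 to 0.788) among cells with Cxcr6 and 0.400 (0.264 to 0.601) among cells with Ccl5. Outside the Gzmb and Cxcr6 gates, without marker barcodes, it was higher in heart cells, with ratios of 4.69 (2.85 to 7.95) for cells without Gzmb and 3.05 (1.52 to 6.07) for cells without Cxcr6. Klrc1 lay between, at 12 CPM in heart cells with Gzmb and 6.83 CPM in spleen cells with Gzmb, a ratio of 1.76 (0.824 to 4.33), against 29.7 (13.1 to 83.4) among cells without Gzmb. The spleen values of Klrc1 rest on 8 UMIs inside the Gzmb gate and 6 UMIs outside it. Those of Klrk1 without marker barcodes rest on 14 UMIs inside the Gzmb gate and 18 UMIs inside the Cxcr6 gate. At full depth 10 cells held 52.3% of the Klrk1 UMIs of spleen cells without marker barcodes, a spread between cells that the intervals do not cover.

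**Figure D5:**
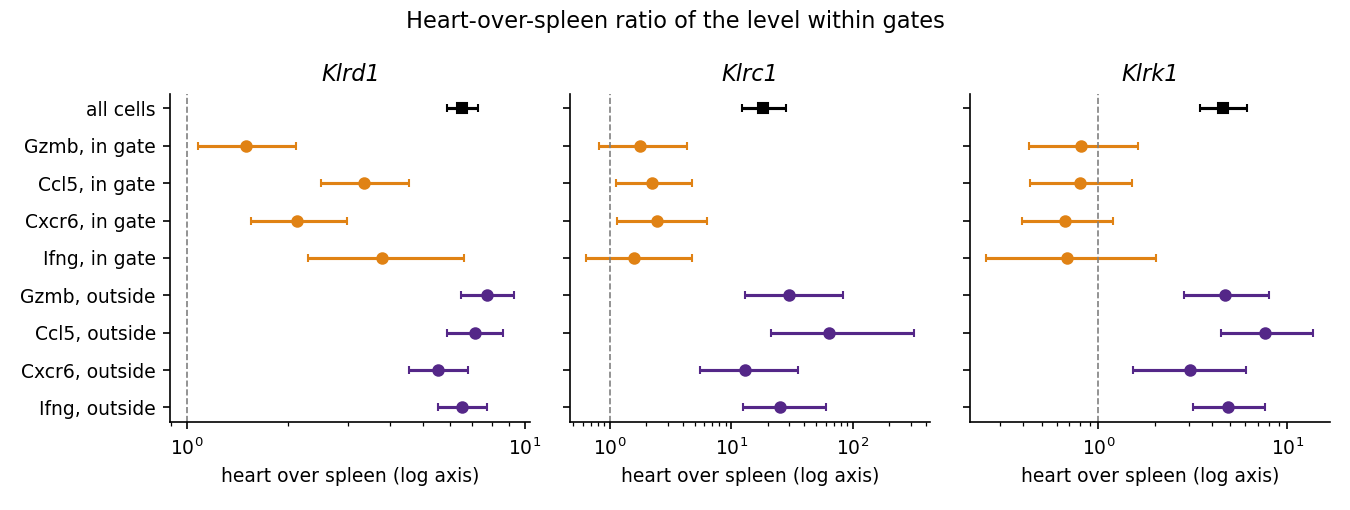
Heart-over-spleen ratio of the level (log axis, dashed line at 1) of Klrd1, Klrc1 and Klrk1, over all cells (black) and among cells inside (orange) or outside (purple) 4 effector gates, without NK or CD8 marker barcodes, with exact 95% intervals for counting error. All inside-gate ratios of Klrk1 lie under 1 with intervals that include 1, and the outside-gate ratios of all 3 genes lie above 1.

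Genes most like the receptors in pattern were ranked by their level in cells with any of the 6 receptors over that in cells with none, among genes with at least 10 CPM in that library. In the heart this set 522 thinned cells against 3383. The highest were Ccl4, a chemokine of cytotoxic cells, at 108.7 CPM in cells with a receptor and 17.1 CPM in cells with none, and Xcl1, a chemokine that draws cross-presenting dendritic cells, at 42.6 and 8.13 CPM. They were followed by Cd74 (the class II invariant chain), Anxa1, Ifitm1, Zeb2, Ifitm2 and Tnfrsf9. Ifitm1, an interferon-induced membrane protein, was at 402 CPM in heart cells with a receptor and 149 CPM in those with none. Zeb2, a factor of terminal effector cells, was at 26.8 and 10.6 CPM. Without marker barcodes the first 8 were Xcl1, Ccl4, Anxa1, Ifitm1, Zeb2, Ifitm2, Il10ra and Rhoq, and Ccl4 stood at 55.4 and 17.2 CPM. Among the lowest in the heart were Il10, Il6ra and Angptl2, with Il10 at 10.5 CPM in cells with a receptor and 35.6 CPM in those with none.

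In the spleen the set held 198 cells with a receptor and 6305 with none, and other genes led among those over that library's floor. Gzma led, at 523 CPM in spleen cells with a receptor and 2.30 CPM in those with none, and it was not among the genes ranked without marker barcodes, where it fell under the floor of 10 CPM. Next came Ccl5 at 3101 and 289 CPM, Cxcr6 at 112 and 24.4 CPM, the interleukin-18 receptor chain Il18rap, the granule protein Nkg7 at 665 and 151 CPM, and Ccr2, Lgals3 and Ifitm3. Without marker barcodes Ccl5 led at 2266 and 289 CPM, followed by Cxcr6 at 115 and 24.4 CPM. The lowest were Tox2, a factor of follicular helper cells, at 1.26 CPM in spleen cells with a receptor and 21.4 CPM in those with none, and Snn, Bcl9 and Borcs7. Of the 8 leading heart genes, all but Cd74 and Tnfrsf9 were higher in spleen cells with a receptor too. Ccl4 and Ifitm1 were under the floor of 10 CPM in the spleen. Ccl4 was at 184 CPM in spleen cells with a receptor and 1.59 CPM in those with none, and Ifitm1 at 87.1 and 3.81 CPM. Cd74 ran the other way in the spleen, at 2.53 and 12.3 CPM, as did Tnfrsf9, at 2.53 and 7.30 CPM. Without marker barcodes Ccl4 was still at 177 CPM in spleen cells with a receptor and 1.59 CPM in those with none. In spleen cells with a receptor, Xcl1 then fell from 11.4 to 1.32 CPM and Zeb2 from 11.4 to 5.29 CPM. Both stayed above the cells with none, at 0.198 and 0.476 CPM, but on very few UMIs. Anxa1, Ifitm1 and Ifitm2 changed little, at 34.4, 87.3 and 41.0 CPM. The 50 highest genes of each tissue had 4 genes in common, and 3 without marker barcodes, a count that the floor limits and that does not show different partners in the tissues. Effector genes that led in the spleen differed less in the heart, where Ccl5 was at 836 CPM in cells with a receptor and 656 CPM in those with none, and Cxcr6 at 481 and 330 CPM.

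Of 26 other lectin receptors of the NK complex, 5 passed the floor of 1 CPM, with 1 at least 2-fold higher in heart cells and 2 at least 2-fold lower, and a median log2 ratio of -0.82 against -0.18 over all genes. Klrb1c, which encodes NK1.1, ran opposite to Klrd1 and had 1 UMI in heart cells and 225 UMIs in spleen cells, or 0.0236 and 3.99 CPM. Of the spleen UMIs, 198 lay outside the marker barcodes, spread over 162 cells, and 3.09% of these cells had a Klrd1 UMI against 4.45% of the other spleen cells. Clec2i was at 22.3 CPM in heart cells and 60.7 CPM in spleen cells, Clec2d at 230 and 406 CPM, and Cd69, an early activation and tissue retention molecule, at 122 and 57.8 CPM.

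Of 17 adaptor and signalling genes 15 passed the floor, 2 at least 2-fold higher in heart cells and 1 lower, with a median of -0.13. Hcst, the adaptor of NKG2D, was at 552 CPM in heart cells and 650 CPM in spleen cells, and Tyrobp, which encodes DAP12, at 3.30 and 3.00 CPM, both named here for their role. Of the Tyrobp UMIs, 82.9% in the heart and 83.4% in the spleen lay in marker barcodes, a set chosen in part on that gene. Ptpn6, the phosphatase SHP-1 that inhibitory receptors recruit, was at 60.7 CPM in heart cells and 203 CPM in spleen cells. Inpp5d, the inositol phosphatase SHIP-1, was at 88.6 and 35.6 CPM, and the T cell adaptor Sh2d2a at 307 and 95.6 CPM.

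Of 16 ligand genes of these receptors 6 passed the floor, 2 at least 2-fold higher in heart cells and 0 lower, with a median of 0.67. Cdh1, which encodes E-cadherin, a ligand of KLRG1, had 251 UMIs in heart cells (5.92 CPM) and 0 UMIs in spleen cells, so it was at least 111-fold higher against a floor of 3 counts in the spleen library. Ulbp1, a ligand of NKG2D, was at 1.16 CPM in heart cells and 0.497 CPM in spleen cells. H2-T23, which encodes Qa-1, was at 488 and 367 CPM, and B2m, its light chain, at 2483 and 1673 CPM.

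Other NK-associated receptors moved in both directions: of 15 genes 12 passed the floor, 4 at least 2-fold higher in heart cells and 3 lower, with a median of -0.0034. The checkpoint receptor Havcr2 was at 10.9 CPM in heart cells and 0.462 CPM in spleen cells, the collagen-binding integrin Itga1 at 5.24 and 0.320 CPM, Tigit at 9.17 and 0.817 CPM, and Cd160 at 6.16 and 14 CPM. Of 19 cytotoxic effector genes 17 passed, 12 at least 2-fold higher and 0 lower, with a median of 1.79. Gzmk was at 119 CPM in heart cells and 7.46 CPM in spleen cells, Ctsw at 419 and 33.6 CPM, Xcl1 at 19.9 and 0.462 CPM, and Ccl4 at 43.8 and 5.5 CPM. Of 22 transcription factors 21 passed, 7 at least 2-fold higher and 7 lower, with a median of 0.56. Nfil3, a factor of NK cell development, was at 36.7 CPM in heart cells and 0.976 CPM in spleen cells, and Zeb2 at 16.4 and 1.21 CPM, while Id3 was at 6.20 and 401 CPM and Klf2, a factor of recirculating cells, at 56.8 and 882 CPM. Of 14 cytokine receptor genes all passed, 4 at least 2-fold higher and 0 lower, with a median of 0.66, among them Il2ra at 29.2 CPM in heart cells and 1.12 CPM in spleen cells and Il12rb2 at 28.9 and 1.72 CPM. Without marker barcodes these counts were the same, apart from 13 adaptor genes over the floor and 4 other NK-associated receptors lower in heart cells.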

How the data were processed

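The deposited matrices hold raw UMI counts, which the authors had not normalized. Their headers name Cell Ranger 3.0.2, per the file headers of the wild-type matrices, whereas Cell Ranger 7.0.0, Seurat 4.0.0 and build mm10 appear in the submitters' processing notes. Whether intronic reads were counted is not given in the sources used here. As each wild-type matrix lists 6794880 barcodes, cells were called with the limits given in the report. Doublets were not called and can remain, and 6 barcode sequences were kept in both libraries. The Ldha-/- matrix has no gene names here and was not analysed.

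UMIs were summed over kept cells and scaled to 1000000 per library (CPM). With 1 library per group no test was run. Intervals are exact at 95% (Poisson, Clopper-Pearson, conditional binomial for ratios). Thinning drew 4000 UMIs per cell without replacement. The cycling gate took cells with at least 2 UMIs over 10 cycling genes. Genes were compared at 1 CPM or more in either library, at 2-fold, with 3 counts in place of 0. The similar genes named are the 8 highest and 4 lowest at 10 CPM or more, and of each list at most the 4 farthest from equal, apart from those said to be named for their role. Receptor segments, mitochondrial, ribosomal protein, sex-linked and unnamed genes were left out of that ranking, and some genes that the rules take are not reported here. Members and lists were chosen with earlier results of these data known. Python 3.11.15, numpy 2.4.6 and scipy 1.17.1 were used, and the scripts were tested on simulated counts.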

Additional observations from a re-analysis of the deposited data

Results flagged for a closer look

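Both results below come from the 77 heart barcodes with at least 2 Lyz2 UMIs, which the report's comparisons leave out, and each was above the level in the kept heart cells. Klrk1 stood at 41.7 CPM in these barcodes, with a UMI in 42 of them (54.5%, at a median of 26551 UMIs), against 7.03 CPM in kept heart cells. Of the 42, 35 also had the T cell receptor gene Trac and 7 did not. In the 19 barcodes without Trac, Klrk1 was at 49.1 CPM (24.5 to 87.9) while Klrd1, Klrc1 and Klrc2 were at 0 UMIs. Klrg1 stood at 1.69 CPM in the 77 barcodes, all of it in 1 barcode, against 0.0943 CPM in kept heart cells.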

How the results depend on the processing

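Klrd1, Klrc1, Klrc2 and Klrk1 stayed higher in heart cells under all 12 alternatives, with log2 ratios of 2.30 to 2.71, 3.13 to 4.20, 3.44 to 7.76 and 1.02 to 2.24. Klrg1 was lower, at -3.09 to -1.89, except that cells thinned to 1000 UMIs held 0 Klrg1 UMIs in the heart and 5 in the spleen, so the value there, -0.02 with 3 counts in place of 0, is only a bound. Klre1 was at -0.19 and reversed to 4.02 without cells holding Cd8a, Cd8b1, Ncr1 or Klrb1c, and to 3.02 without NK or CD8 marker barcodes, an alternative added after seeing the data. In both, fewer NK marker barcodes remain in the spleen. Totals without mitochondrial, ribosomal protein and Malat1 UMIs moved every log2 ratio by -0.17, and then 1 member, Klrg1, passed the floor and was at least 2-fold lower. Klrg1 passed it only through spleen cells. With a floor of 10 CPM, 2 members passed, both higher, and 670 and 679 genes in all were higher and lower, against 1175 and 1652. Those members, Klrd1 and Klrc1, passed that floor only through heart cells. Without thinning, the co-detection ratio of Klrd1 and Klrc1 in the heart was 3.97, against 5.37, and 33 heart and 30 spleen genes of the 50 most similar remained. The heart ranking was then led by the class II genes H2-Aa, at 41.2 CPM in cells with a receptor and 2.90 CPM in those with none, H2-Eb1 and H2-Ab1, with Cd8b1 at 32.5 and 6.57 CPM; their part was not tested. No paired analysis was possible because each group has 1 library. Depth limits Klrg1 and Klre1, whose values rest on 4 to 50 UMIs.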
